A study of Mus musculus with 6 samples.

Results

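Clustered protocadherins are adhesion proteins of the cadherin superfamily whose genes lie side by side in 3 arrays, called alpha, beta and gamma. They were taken here as every gene name of the form Pcdha, Pcdhb, Pcdhga or Pcdhgb followed by a number, with the C-types Pcdhac1, Pcdhac2, Pcdhgc3, Pcdhgc4 and Pcdhgc5. This gave 57 of the 49568 gene names, namely 11 alpha, 22 beta, 12 gamma A and 7 gamma B members and the 5 C-types. Each sample held 15 neurons of the preBötzinger complex (preBötC), the brainstem site where inspiratory rhythm originates, and came from a different mouse of either sex at postnatal day 2. All animals were Dbx1CreERT2; Rosa26tdTomato offspring of dams given tamoxifen during gestation. The 3 Dbx1 samples were made of neurons with tdTomato fluorescence, which marks cells descended from progenitors that expressed the transcription factor Dbx1 when tamoxifen was present. The 3 non-Dbx1 samples were made of neuronal somata without that fluorescence, a mixed population that can also hold Dbx1-derived neurons in which recombination did not occur.

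In each array, a series of variable exons encodes the extracellular and transmembrane parts of the proteins, and every variable exon has its own promoter. A neuron usually transcribes only a few alpha, beta and gamma variable exons, apparently chosen at random from cell to cell, whereas the C-type promoters are used more broadly. The proteins assemble on the cell surface and bind matching combinations on other membranes, and this is known for letting the processes of a neuron recognise each other and for supporting the survival of interneurons. In the alpha and gamma arrays, each variable exon is spliced to shared constant exons for the cytoplasmic tail, while beta genes consist of their own exon.

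All 57 members lay on the + strand of chromosome 18 (GRCm38, the build named mm10 in the submitters' processing notes; GENCODE vM21 gene positions). The alpha array spanned chr18:36930184-37187661 with Pcdhac1 and Pcdhac2 at its end. The beta array spanned chr18:37264938-37524479. The gamma array spanned chr18:37661793-37841873 with Pcdhgc3, Pcdhgc4 and Pcdhgc5 as its last genes.

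Expression was given as RPKM, the number of reads on a gene normalised to the length of its exons and to all reads on genes in the sample, and the shared exons bear on how these values read. The authors counted reads by gene name without strand, so a read that fell on exons carrying more than 1 name was assigned to none. By vM21, 38 of the 57 members shared exon bases with another name, and 19 members, all beta, shared none. The median share of exon bases that belonged to 1 name only was 45.1% for alpha, 53.8% for gamma A, 54.8% for gamma B, 51.4% for the C-types and 100% for beta. Reads from the constant exons of alpha and gamma therefore do not appear under any member, while the whole exon length stands in the denominator. Pcdhga10 had no exon base of its own, because 55.2% of its bases overlapped the antisense gene Gm26672 and the rest was constant exon, and it was listed at 0 in every sample. Across the whole table, 984 of the 1030 gene names with no exon base of their own were likewise at 0 in all 6 samples. Pcdha4 kept only 7% of its exon bases, and Pcdhb12 kept 36.5% beside the antisense gene Gm37446. Variable exons of a class also resemble each other in sequence, and reads that align equally well to several members could be lost or misplaced, so the value of a single member is uncertain to that extent.

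The smallest sample had 6464675 reads on genes and the largest 9432958, totals worked out from the spacing of low RPKM values. Of the 342 member values, 185 were above 0, and 27 of these rested on 1 or 2 reads. The most reads of any member in a sample were 735, for Pcdhac2. Neuronal markers (Tubb3, Snap25, Syn1, Eno2, Map2 and Rbfox3) summed to 994 to 1708 RPKM in Dbx1 samples against 993 to 1380 in non-Dbx1 samples. The 6 oligodendrocyte lineage markers summed to 2.91 to 8.94 RPKM in Dbx1 samples against 9.46 to 344 in non-Dbx1 samples, the highest in non-Dbx1 replicate 1 with Mbp at 155.3 and Sox10 at 46.0. Non-Dbx1 replicate 1 also held 13950 RPKM of 4 haemoglobin genes, against 732 and 1198 in the other non-Dbx1 samples and 89.6 to 505 in Dbx1 samples. The endothelial marker Cldn5 measured 63.7 RPKM in non-Dbx1 replicate 2 and at most 1.64 in any other sample. The 5 astrocyte markers summed to 17.0 to 28.1 and 27.0 to 33.9 RPKM, and microglial markers to at most 2.98 with Tmem119 at 0 in all samples. Of 3 serotonergic markers, Tph2 had 3.36 RPKM in Dbx1 replicate 1 only, and Fev and Slc6a4 were at 0 in all samples. The part of these other cell types in the protocadherin values was not tested.

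Most members were present in some samples and absent from others. Reads were found for 54 of the 57 members in at least 1 sample, and for only 5 in all 6 samples (Pcdhb9, Pcdhb17, Pcdhb20, Pcdhga12 and Pcdhgc4). Of these, Pcdhb9 had only 1 read in non-Dbx1 replicate 3, and Pcdhb20 had only 1 read in non-Dbx1 replicate 1. The 3 members without a read were Pcdhac1, Pcdhb1 and Pcdhga10. Per sample, 29, 34 and 31 members had reads in Dbx1 samples against 27, 29 and 35 in non-Dbx1 samples, so the groups overlapped. With at least 3 reads required, the numbers were 25, 29 and 29 in Dbx1 samples against 22, 22 and 31 in non-Dbx1 samples. Reads occurred in both groups for 45 members, only in Dbx1 samples for 4 and only in non-Dbx1 samples for 5. Members found in 1 group had reads in at most 2 samples, and their restriction to that group is a description of these libraries.

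**Figure D1:**
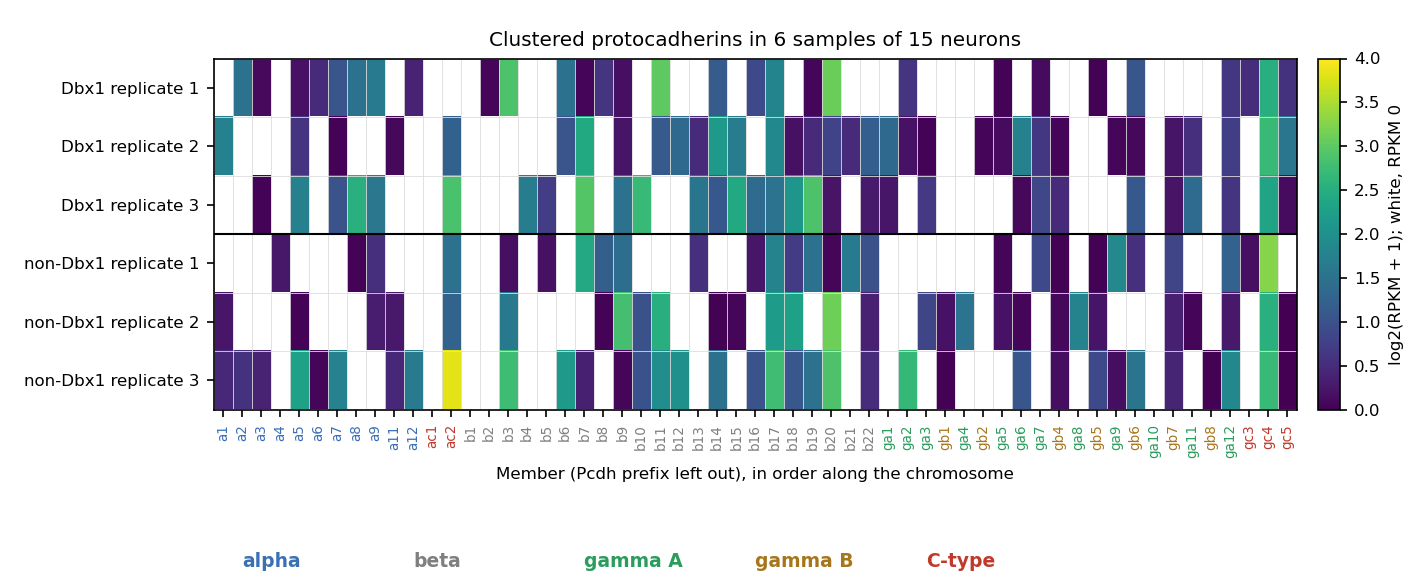
RPKM of the 57 members (columns, in order along the chromosome, names coloured by class) in the 6 samples (rows, a black line between the groups), as log2(RPKM + 1) on the colour scale, with white for RPKM 0. Coloured and white cells alternate within every array except at a few columns such as Pcdhb17 and Pcdhgc4, which are coloured in all 6 rows.

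By class, no alpha and no gamma B member had reads in all 6 samples, against 3 of 22 beta members, 1 of 12 gamma A members and 1 of 5 C-types. Members with reads in exactly 3 samples were the most frequent, at 13 of 57, and 7 members had reads in a single sample. Along the beta array, members nearer its end had reads in more samples (Spearman correlation of position with the number of samples 0.55 over 22 members). However, those members also had more unshared exon bases. As 19 of the 22 beta members shared no exon base, this mostly stood for exon length. Unshared exon bases correlated at 0.55 with position and at 0.52 with the number of samples. The part of exon length in the trend was not tested. The corresponding correlations of position with the number of samples were 0.14 for alpha, 0.17 for gamma A and 0.17 for gamma B. These are descriptions across genes measured in the same 6 libraries.

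**Figure D2:**
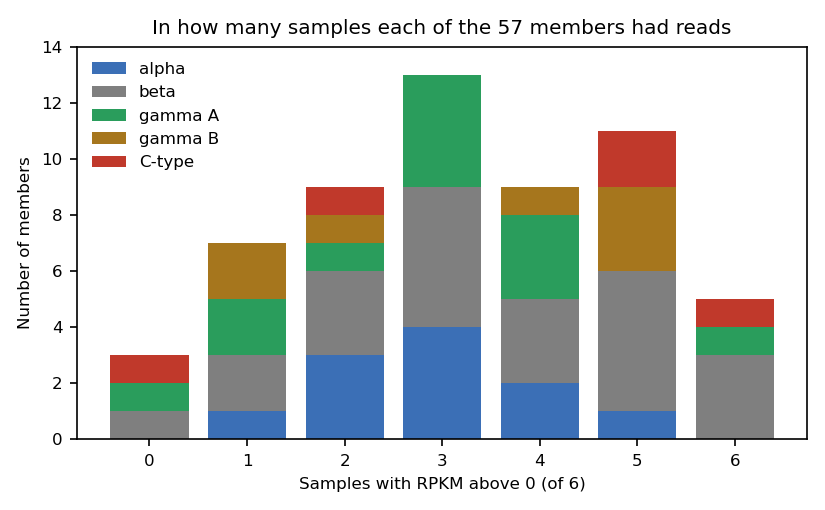
Number of members (vertical axis) with RPKM above 0 in 0 to 6 of the 6 samples (horizontal axis), stacked by class. The tallest bar is at 3 samples with 13 members, and 5 members stand at 6 samples.

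Absences also occurred in members that had many reads in another sample. Among the 52 members other than C-types, 35 had at least 50 reads in some sample, and 30 of these (85.7%) had no read at all in another sample of the same group. This held for 7 of 7 alpha members, 15 of 18 beta members, 7 of 8 gamma A members and 1 of 2 gamma B members. Of 6227 genes outside the family whose highest read number lay in the same range, 2682 (43.1%) showed such a pattern. Among the 10 non-clustered protocadherins with at least 50 reads in a sample, only Pcdh20 did, and it had the fewest reads of them (at most 86 in a sample). The others reached 349 reads or more in a sample, above the highest number of any of the 52 members (317). They were thus not compared with the members at a like level of reads. When each sample was left out in turn, the share ranged from 61.8% to 80% of members, lowest without Dbx1 replicate 1, and from 31.4% to 39.8% of the other genes. Without non-Dbx1 replicate 1, the sample with the highest oligodendrocyte and haemoglobin marker sums, it was 75.8% against 33.2%. Such transcripts remained in the other samples, and their part in the pattern was not tested. Members with at least 90% of their exon bases unshared gave 14 of 17 (82.4%). Because each sample pooled 15 neurons, fewer neurons using a promoter and less RNA per neuron cannot be told apart.

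The members present also differed from sample to sample. For the 52 members other than C-types, a pair of samples shared 12 to 22 members out of 35 to 42 found in either. Spearman correlations of log2(RPKM + 1) over these 52 members were 0.04, 0.11 and 0.29 between Dbx1 samples and 0.03, 0.11 and 0.22 between non-Dbx1 samples. Between samples of different groups they ranged from 0.05 to 0.52 with a median of 0.18. The ranges within and between groups overlapped. The correlations include members without a read in either sample and are given as descriptions.

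Beta members had the highest summed RPKM of the 5 classes in each sample. Beta was also the class with the most members (22), and the sums were not divided by the number of members. The single members with the highest mean RPKM were the C-types Pcdhgc4 and Pcdhac2. The beta sum was 28.1, 20.04 and 37.9 in Dbx1 samples against 16.3, 29.4 and 34.9 in non-Dbx1 samples. The means were 28.7 ± 8.95 and 26.8 ± 9.53 (SD, n = 3), and the groups overlapped. Alpha members summed to 7.79, 3.005 and 10.2 in Dbx1 samples against 0.682, 0.662 and 10.1 in non-Dbx1 samples. The means were 7.001 ± 3.67 and 3.802 ± 5.42. Alpha sums in non-Dbx1 replicates 1 and 2 were below every Dbx1 sample, but non-Dbx1 replicate 3 was close to the highest Dbx1 sample. Non-Dbx1 replicate 1 had the highest Mbp and replicate 2 the highest Cldn5, and their part in the alpha sums was not tested. Gamma A members summed to 1.19, 5.95 and 3.78 in Dbx1 samples against 4.95, 5.58 and 9.17 in non-Dbx1 samples, with means of 3.64 ± 2.38 and 6.57 ± 2.28. Gamma B members summed to 1.11, 0.309 and 1.70 in Dbx1 samples against 1.28, 0.633 and 3.22 in non-Dbx1 samples, with means of 1.04 ± 0.699 and 1.71 ± 1.34. In both gamma classes the groups overlapped.

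The 5 C-types summed to 5.62, 8.86 and 10.3 in Dbx1 samples against 10.6, 6.25 and 18.7 in non-Dbx1 samples. Their means were 8.27 ± 2.42 and 11.9 ± 6.32, again with overlap. All 57 members together gave 48.6 ± 13.5 RPKM in Dbx1 samples against 50.8 ± 22.3 in non-Dbx1 samples. Division by the unshared exon length in place of the whole exon length raised the alpha means to 17.1 ± 9.47 and 10.1 ± 13.1 and the gamma A means to 8.76 ± 5.42 and 14.5 ± 3.16, beside 29.7 ± 7.53 and 28.8 ± 11.4 for beta. The 5 C-types gave 19.3 ± 3.58 and 26.0 ± 12.3 on that scale, and in non-Dbx1 replicate 1 they exceeded the 22 beta members (24.9 against 17.1). The unshared lengths came from vM21, but for 17 members the length behind the RPKM differed from it. For Pcdhgc4 that length was 8277 bases, against 5596 exon bases in vM21, of which 3477 were unshared. Its value on this scale is too high if the authors' longer exons held more unshared bases. The excess of the C-types over beta in non-Dbx1 replicate 1 is therefore uncertain.

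**Figure D3:**
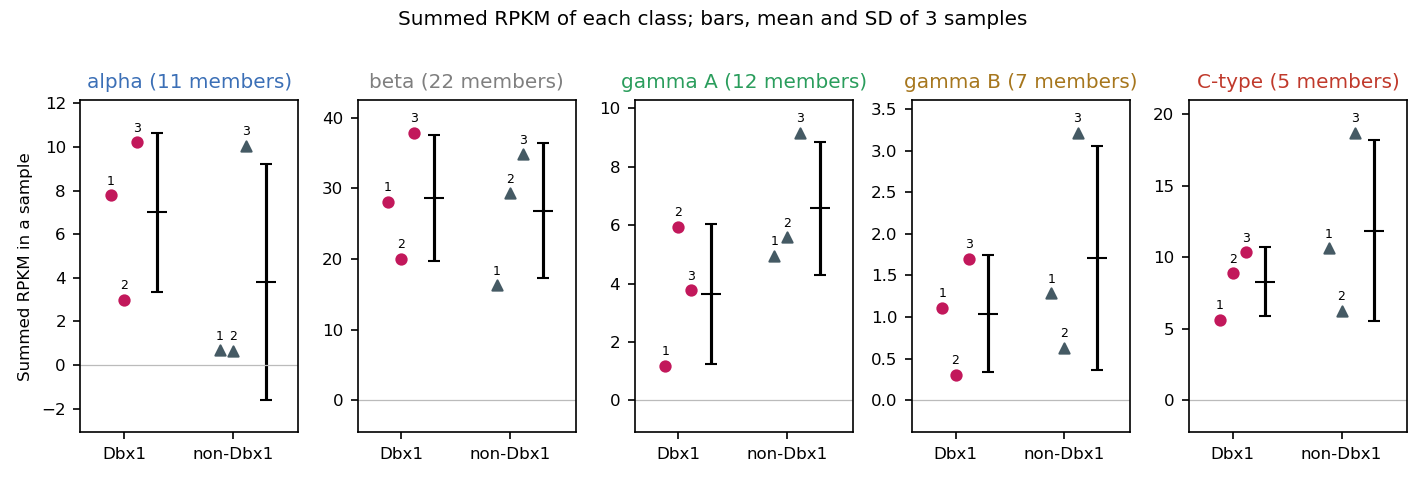
Summed RPKM of the members of each class (vertical axes, 1 panel a class, each with its own scale) in the 3 Dbx1 samples (circles) and 3 non-Dbx1 samples (triangles), with replicate numbers and the mean and SD of each group as bars. The groups overlap in all 5 panels, and alpha sums of non-Dbx1 replicates 1 and 2 lie at 0.682 and 0.662, far below the third non-Dbx1 sample at 10.1.

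With all 6 samples, no larger share of members than of all genes passed a threshold between the groups. L2FC was defined as the difference in mean log2(RPKM + 1), Dbx1 minus non-Dbx1, and is given with its standard error (SE) and its Benjamini-Hochberg false discovery rate (FDR). Of the 57 members, 38 had reads in at least 3 samples and were tested, and 19 were not. Limma on log2(RPKM + 1) gave an FDR under 0.1 for 0 of the 38 members, where 0.00568% of the 17614 genes tested passed (1 gene). The unadjusted p was under 0.05 for 1 of 38 members (2.63%), higher in Dbx1 samples, where 5.2% of all tested genes passed. Limma-voom on the recovered reads gave an FDR under 0.1 for 0 of the 23 members it could test and for 0 of all genes. Its unadjusted p was under 0.05 for 1 member (Pcdhb14, 4.35%), where 5.33% of all genes it tested passed. The groups did not overlap for 3 of 38 members (7.89%), higher in Dbx1 samples for Pcdhgc5 and in non-Dbx1 samples for Pcdhgb7 and Pcdhgb5, where 10.6% of all tested genes did not overlap. L2FC was above 0 for 19 members and below 0 for 19, from -0.84 for Pcdhac2 to 1.35 for Pcdhb15, and its median was 0.01, the same as the 0.01 of all tested genes. For 26 of the 38 members the L2FC was smaller than its own SE.

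**Figure D4:**
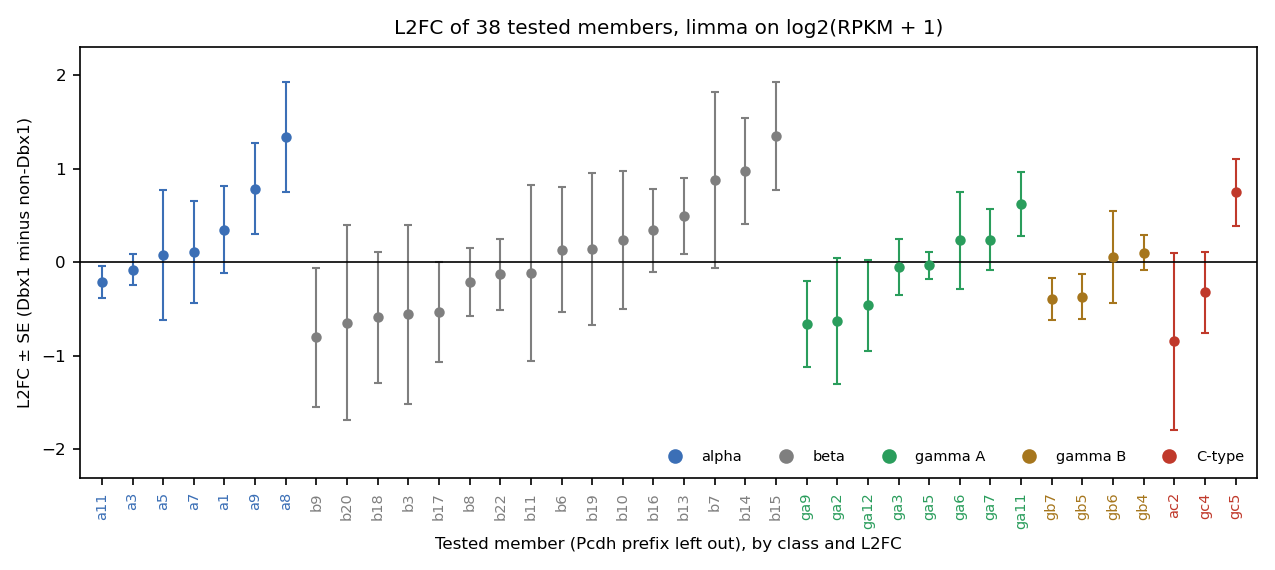
L2FC (vertical axis, Dbx1 minus non-Dbx1 on the log2(RPKM + 1) scale) with its limma SE for the 38 tested members, ordered by class and L2FC along the horizontal axis. Values lie on both sides of 0 in each class, and 26 of the 38 bars cross it.

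Pcdhgc4 was the member with the highest mean RPKM and varied little between samples for its level. This C-type is the one known to be needed for the survival of many interneurons after birth. Its RPKM was 4.68, 5.55 and 4.03 in Dbx1 samples against 8.65, 4.82 and 5.47 in non-Dbx1 samples, from 232 to 463 reads. Non-Dbx1 replicate 1 was the highest, the other 5 samples lay between 4.03 and 5.55, and the groups overlapped. The group means were 4.75 ± 0.764 and 6.31 ± 2.05, and the L2FC was -0.32 (SE 0.43, limma FDR = 0.96). Its SD of log2(RPKM + 1) within groups was 0.304, beside a median of 0.619 over 1484 other genes of similar level.

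Pcdhac2, the C-type at the end of the alpha array, has been linked to the spacing of serotonergic axons. It measured 0, 1.35 and 6.22 RPKM in Dbx1 samples against 1.84, 1.43 and 13.2 in non-Dbx1 samples. Dbx1 replicate 1 had no read and replicate 3 of each group was highest, so the spread within groups was wider than the difference between them (L2FC = -0.84, SE 0.95, limma FDR = 0.96). The L2FC was -0.03 without non-Dbx1 replicate 3 and -0.16 without Dbx1 replicate 1, and -1.59 without Dbx1 replicate 3. Pcdhac1 had no read in any sample, where 3 reads over its whole exon length would give 0.0587 to 0.0856 RPKM. Only 47.2% of its exon bases were unshared, so these values are not an upper limit on its expression.

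Pcdhgc5, a C-type of the gamma array, was the only C-type whose groups did not overlap. Its RPKM was 0.496, 1.96 and 0.0882 in Dbx1 samples, from 45, 168 and 7 reads, against 0, 0.0103 and 0.00929 in non-Dbx1 samples, from at most 1 read each. The non-Dbx1 values thus lay under the level of 3 reads, 0.0279 to 0.0407 RPKM in a sample. The difference did not pass the threshold of FDR 0.1 (L2FC = 0.75, SE 0.36, limma FDR = 0.91), and the exact two-sided permutation test gave p = 0.10, the smallest value that 3 samples against 3 allow. Without Dbx1 replicate 2 the L2FC was 0.34. Pcdhgc3 had 41 reads in Dbx1 replicate 1 (0.442 RPKM), 9 reads in non-Dbx1 replicate 1 (0.119 RPKM) and none in the other 4 samples. It was not tested, because fewer than 3 samples had reads.

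Among alpha members, Pcdha5, Pcdha8 and Pcdha9 had the highest mean RPKM. Pcdha5 measured 0.145, 0.536 and 2.35 in Dbx1 samples against 0, 0.0225 and 3.89 in non-Dbx1 samples, high in replicate 3 of both groups. Pcdha8 measured 1.84, 0 and 4.82 in Dbx1 samples against 0.0290, 0 and 0 in non-Dbx1 samples, where the single value was 1 read. Dbx1 replicate 2 had none either, so the groups overlapped at 0 (L2FC = 1.34, SE 0.59, limma FDR = 0.91, exact two-sided permutation test p = 0.40). Pcdha9 measured 2.12, 0 and 1.99 in Dbx1 samples against 0.463, 0.241 and 0 in non-Dbx1 samples, and its groups overlapped too. The leading alpha member changed from sample to sample, being Pcdha9, Pcdha1 and Pcdha8 in Dbx1 samples against Pcdha9, Pcdha9 and Pcdha5 in non-Dbx1 samples. In Dbx1 replicate 2, Pcdha1 alone held 79.3% of the alpha RPKM.

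Pcdhb20 was the highest beta member on average and the most variable. It measured 7.60, 0.746 and 0.162 RPKM in Dbx1 samples against 0.0435, 7.65 and 6.37 in non-Dbx1 samples. High and near-zero samples stood in both groups, with 214 to 233 reads in the high ones and 1 to 20 in the low ones, and the SD within groups was 1.61 on the log2 scale. Pcdhb17 had the opposite behaviour. Its RPKM was 2.48, 2.65 and 1.88 in Dbx1 samples against 2.46, 3.64 and 5.87 in non-Dbx1 samples, an overlapping range with no sample under 61 reads. The SD within groups was 0.374, beside 0.708 for the median of 1775 other genes of similar level, and the L2FC was -0.53 (SE 0.54, limma FDR = 0.95). Pcdhb11 measured 7.001, 1.202 and 0 in Dbx1 samples against 0, 4.73 and 2.88 in non-Dbx1 samples, so each group held a sample without a read.

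Pcdhb15 was the only tested member with an unadjusted limma p under 0.05. It had 47 and 85 reads in Dbx1 replicates 2 and 3 (2.23 and 4.36 RPKM), 1 read in non-Dbx1 replicate 2 (0.0417 RPKM) and none in the other 3 samples. Dbx1 replicate 1 was as empty as the non-Dbx1 samples, so the groups overlapped (L2FC = 1.35, SE 0.58, limma FDR = 0.91). The exact two-sided permutation test gave p = 0.40 for Pcdhb15.

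Gamma A members with the highest mean RPKM were Pcdhga12, Pcdhga2 and Pcdhga6. Pcdhga12, the last gamma A gene of the array, was the gamma A member with reads in all samples, at 0.573, 0.676 and 0.533 RPKM in Dbx1 samples against 1.39, 0.211 and 2.63 in non-Dbx1 samples. The Dbx1 samples were close to each other (0.594 ± 0.0735), and the non-Dbx1 samples lay on either side of them. Pcdhga2 measured 5.34 RPKM in non-Dbx1 replicate 3 (236 reads), 0.510 and 0.142 in Dbx1 replicates 1 and 2 and 0 in the other 3 samples, so its mean came mostly from a single library. Pcdhga6 measured 0, 2.38 and 0.0607 in Dbx1 samples against 0, 0.0494 and 1.10 in non-Dbx1 samples, so each group held a sample without a read. Pcdhga11, among the 5 lowest p of the family, measured 0, 0.447 and 1.63 in Dbx1 samples against 0, 0.0492 and 0 in non-Dbx1 samples (L2FC = 0.62, SE 0.34, limma FDR = 0.92). The leading gamma A member was a different gene in each of the 6 samples, namely Pcdhga12, Pcdhga6 and Pcdhga11 in Dbx1 samples against Pcdhga9, Pcdhga8 and Pcdhga2 in non-Dbx1 samples. Pcdhga8 had all of its 100 reads in non-Dbx1 replicate 2, and Pcdhga4 had all of its 75 reads there too.

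Gamma B members had the lowest mean summed RPKM of the 5 classes in both groups, although the alpha sum was lower in non-Dbx1 replicate 1. Pcdhgb6 measured 1.10, 0.0567 and 1.14 in Dbx1 samples against 0.462, 0 and 1.90 in non-Dbx1 samples, which overlapped widely. Pcdhgb7 measured 0, 0.169 and 0.152 in Dbx1 samples against 0.788, 0.273 and 0.337 in non-Dbx1 samples. Each non-Dbx1 sample thus lay above each Dbx1 sample, from 11 to 24 reads against 0 to 6 (L2FC = -0.39, SE 0.23, limma FDR = 0.93; exact two-sided permutation test p = 0.10). Pcdhgb5 measured 0.0136, 0 and 0 in Dbx1 samples against 0.0167, 0.164 and 0.838 in non-Dbx1 samples. Its groups did not overlap either, but non-Dbx1 replicate 1 and Dbx1 replicate 1 each had 1 read (L2FC = -0.37, SE 0.24, limma FDR = 0.94; exact two-sided permutation test p = 0.10).

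The median SE of the tested members was 0.489. A difference had to be well above its SE to reach an unadjusted limma p under 0.05, as for Pcdhb15 (L2FC = 1.35, SE 0.58). The SE reflected the spread between samples of a group, which limma draws toward the spread of all tested genes at a similar level. The median SD of log2(RPKM + 1) within groups was 0.727 for the 35 tested members other than C-types, beside 0.609 for 9055 other tested genes in the same range of mean. Most of the gap was at the higher levels. For a mean log2(RPKM + 1) between 1 and 2, the median SD was 1.33 for 8 members and 0.776 for 3912 other genes, and between 0.5 and 1 it was 0.833 for 13 members and 0.697 for 2515 other genes. By class, the median was 1.02 for the 16 tested beta members, 0.737 for 7 alpha, 0.533 for 8 gamma A and 0.262 for 4 gamma B members, which had lower levels. The gap over the whole range was small without Dbx1 replicate 2 (0.636 against 0.605) and without non-Dbx1 replicate 3 (0.588 against 0.56). These medians are descriptions, since members that passed the filter on reads were not chosen at random.

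**Figure D5:**
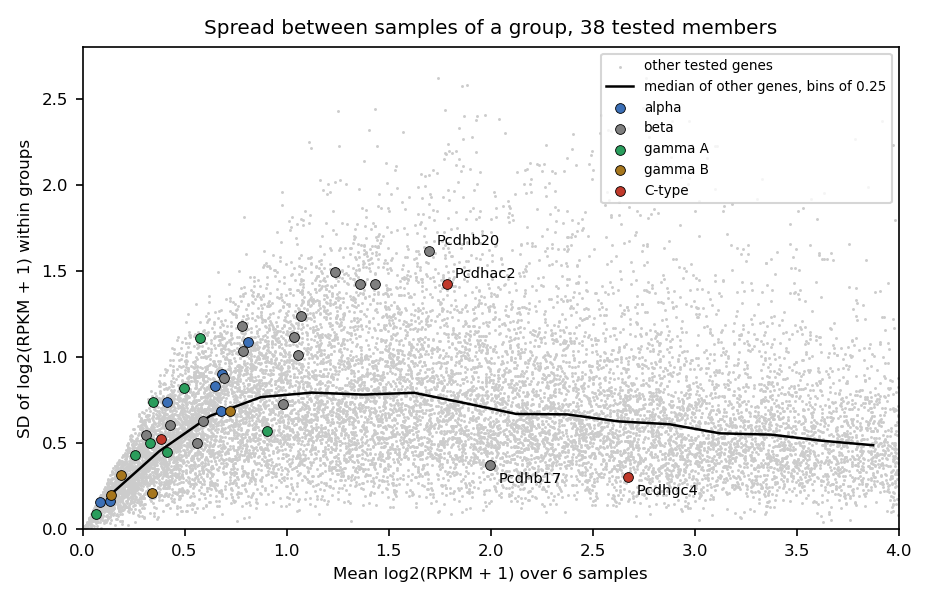
SD of log2(RPKM + 1) within groups (vertical axis) against the mean of log2(RPKM + 1) over the 6 samples (horizontal axis) for tested genes with a mean up to 4, with members coloured by class and a line for the median of the other genes in bins of 0.25. Pcdhb20 and Pcdhac2 lie above the line at SDs of 1.61 and 1.42, and Pcdhb17 and Pcdhgc4 below it at 0.374 and 0.304.

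Protocadherins outside the clusters, which each have a gene of their own elsewhere in the genome, were mostly found in every sample, and mostly at higher read numbers than the clustered members. Of 11 such genes, 9 had reads in all 6 samples. Of the 10 tested, none had an unadjusted limma p under 0.05, where 5.2% of all tested genes passed. Pcdh17 was the highest, at 14.4, 25 and 39.7 RPKM in Dbx1 samples against 23.3, 23.1 and 10.8 in non-Dbx1 samples, ranges that overlapped (L2FC = 0.41, SE 0.44, limma FDR = 0.95). Pcdh10 measured 5.80, 8.72 and 11.4 in Dbx1 samples against 5.12, 3.15 and 6.46 in non-Dbx1 samples, with overlap in the lowest Dbx1 sample (L2FC = 0.71, SE 0.44, limma FDR = 0.94).

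Promoter choice in the clusters depends on the insulator protein CTCF, on the cohesin ring that loops distant enhancers to promoters, and on DNA methylation and silencing factors. Of 17 such genes, 15 had reads in all 6 samples, and 16 were tested. An unadjusted limma p under 0.05 was found for 2 of the 16 (12.5%, where 5.2% of all tested genes passed), and none passed FDR 0.1. The groups did not overlap for the same 2 genes (12.5%, where 10.6% of all tested genes did not overlap). Smc3, a structural subunit of cohesin, measured 14.7, 12.1 and 15.2 RPKM in Dbx1 samples against 4.88, 1.73 and 6.94 in non-Dbx1 samples. The groups did not overlap, with the Dbx1 samples higher (L2FC = 1.57, SE 0.47, limma FDR = 0.81). Rad21, the cohesin subunit that closes the ring, went the other way. It measured 15.2, 13.9 and 13.9 in Dbx1 samples against 29.4, 22.1 and 22.8 in non-Dbx1 samples, without overlap (L2FC = -0.74, SE 0.26, limma FDR = 0.91). Oligodendrocyte and haemoglobin marker sums did not overlap between the groups either and were higher in non-Dbx1 samples, and their part in the values of Smc3, Rad21, Pcdhgc5, Pcdhgb7 and Pcdhgb5 was not tested. Ctcf itself measured 5.60, 8.04 and 16.8 in Dbx1 samples against 10.4, 12.01 and 7.26 in non-Dbx1 samples, which overlapped (L2FC = -0.07, SE 0.45, limma FDR = 0.99). The de novo methyltransferase gene Dnmt3b had 1 read in all, whereas Dnmt3a, which has the same activity, had 7.61 to 12.6 RPKM in every sample.

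The cytoplasmic tails of these proteins meet focal adhesion kinases and the WAVE actin regulatory complex, and the proteins are cut by Adam10 and presenilin. Of 18 genes for such partners and enzymes, 17 had reads in all 6 samples, and all 18 were tested. None of the 18 had an unadjusted limma p under 0.05, where 5.2% of all tested genes passed. Groups did not overlap for 3 of them (16.7%, where 10.6% of all tested genes did not overlap), 1 higher in Dbx1 samples and 2 in non-Dbx1 samples. Brk1, a small subunit of the WAVE complex, was the highest at 232, 240 and 150 RPKM in Dbx1 samples against 253, 237 and 117 in non-Dbx1 samples (L2FC = 0.08, SE 0.35, limma FDR = 0.99). Adam10 had 1 read in Dbx1 replicate 1 (0.0188 RPKM) and 4.34 to 6.92 RPKM in the other 5 samples.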

How the data were processed

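Each sample of 15 neurons was lysed, its RNA was turned into full-length complementary DNA and amplified, and single-end reads were sequenced. The authors aligned the reads to mm10 with TopHat2, sorted them with SAMtools and counted them by gene name, without strand, with HTSeq. They deposited RPKM, computed per sample from the exon length of an Ensembl mouse annotation, with no scaling between samples. The release of that annotation is not given in the sources used here. Total and per-gene read numbers were recovered from the steps between RPKM values within a tolerance of 0.01, using exon lengths of GENCODE vM21 (GRCm38). Names of 47214 of 49568 rows matched. Recovered reads summed to 99.8% to 100.9% of each sample's total, and whole or nearest whole reads were assigned for all but 402 of the genes with a value. For 32 members the length behind the RPKM equalled that of vM21, for 17 it did not and the whole-read solution nearest to it was taken, for 5 with reads in 1 sample the read number nearest to that length was taken, and 3 members had no reads. Floors of 3 reads cover counting error only, since reads of amplified complementary DNA are not independent molecules.

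The authors tested counts with DESeq2. As the files hold RPKM, log2(RPKM + 1) was tested here with limma 3.58.1 (R 4.3.3; lmFit, eBayes with a trend, two-sided). The 17614 genes detected (RPKM above 0) in 3 or more samples entered, and the threshold was a Benjamini-Hochberg FDR of 0.1. L2FC on this scale understates the change of low genes. The code was tested on simulated data. Single genes also had an exact two-sided permutation test over the 6 samples. Sums over members, numbers detected and spreads were described without a test. Plots were drawn with matplotlib 3.10.9, and remaining values computed with scipy 1.17.1, pandas 2.3.3 and numpy 2.4.6 under Python 3.11.15.

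The members, the gene lists and the tests were chosen with earlier results of these data known. Genes named with values are the 5 C-types, the 3 members of highest mean RPKM in each other class, the 5 members of lowest p and, in each further list, the gene of highest mean and the gene of lowest p. One gene that this rule names is not reported here. Others named (Pcdha1, Pcdha4, Pcdhb1, Pcdhb9, Pcdhb12, Pcdhb14, Pcdhga4, Pcdhga8, Pcdhga9, Pcdhga10, Pcdh20, Ctcf, Dnmt3a, Dnmt3b, Adam10) were chosen after their values were seen. Positions came from GENCODE vM21 on GRCm38. Alternatives were a pseudocount of 0.1, other filters, size factors, quantile normalization, no trend, the replicate number as a block, voom on recovered reads and leaving out each sample.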

Additional observations from a re-analysis of the deposited data

How the results depend on the processing

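No setting gave any member an FDR under 0.1 (limma, voom included). Over all genes, 1 passed, against 0 with a pseudocount of 0.1, with genes above 0 in at least 1 sample, with the replicate block and with voom on recovered reads, 3 without the trend, and 0 to 1 with a sample left out (0 without non-Dbx1 replicate 3). Members with an unadjusted p under 0.05 numbered 1 (2.63% of those tested, 5.2% of all genes). There were 0 with genes above 0 in at least 1 sample (2.87% of all genes). The number was also 0 with 3 or more samples at 1 RPKM or above (5.65% of all genes) and without the trend (5.73%). It was 2 with quantile normalization (5.26% of those tested, 5.43% of all genes) and 2 with the replicate block (5.26%, 4.65% of all genes). With a sample left out there were 0 to 2 such members. The number was 0 without non-Dbx1 replicate 1 (5.64% of all genes) or without non-Dbx1 replicate 2 (5.08%). It was 2 of 33 without Dbx1 replicate 1 (6.06% against 5.49% of all genes) and 2 of 29 without Dbx1 replicate 2 (6.9% against 4.09%). The members concerned changed, being Pcdhgc5 with a pseudocount of 0.1 and without Dbx1 replicate 3, and Pcdhb14 with voom and without non-Dbx1 replicate 3. The replicate number did not pair the samples, since correlations of the deviations of same-numbered samples lay between -0.107 and 0.0248, and the block gave p under 0.05 for Pcdha8 and Pcdhb15.

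Of 292 alternative L2FC values of the 23 tested genes named by rule, 276 kept their direction and side of the threshold and 16 changed sign. Pcdha5 fell to -0.001 with quantile normalization and ranged from -0.367 to 0.836 with a sample left out. The corresponding ranges were -0.922 to 0.578 for Pcdhb11, -0.337 to 0.580 for Pcdhga6, -0.294 to 0.474 for Pcdhgb6 and -0.271 to 0.30 for Brk1. The signs of these 5 genes depended on single samples, and leaving out 1 sample moved the L2FC by over 1.5 times for 20 of the 23.

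The log2 ratio of group mean alpha sums was 0.881, and 3.38 without non-Dbx1 replicate 3, the only non-Dbx1 sample with high alpha values. With each other sample left out it was 0.382 or more. Detected members fell at a minimum of 1 RPKM to a mean of 2.00 alpha, 8 beta, 1.67 gamma A, 0.50 gamma B and 14.2 members in all per sample, and gamma B fell to 2.33 at a minimum of 0.1 RPKM. With a pseudocount of 0.1 the median SD of members was 1.98, against 1.45 for other genes of the same range. The ratio of the 2 medians was 1.36 with that pseudocount and 1.19 with a pseudocount of 1. With a pseudocount of 1 and a sample left out it was 1.05 to 1.39, lowest without Dbx1 replicate 2 or non-Dbx1 replicate 3. Depth limits the low members, since 27 of 185 values rested on 1 or 2 reads.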
